A study of Mus musculus with 2 samples.

Results

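The genes described here encode the MHC class II presentation machinery. They were taken by symbol from a table of 17134 genes, and all 7 were found: H2-Aa, H2-Ab1, H2-Eb1, Cd74, H2-DMa, H2-DMb1 and Ciita. The values come from RNA sequencing of tuft cells, the chemosensory cells of the gut epithelium, which were sorted as EpCAM+ SiglecF+ cells of the small intestine from naive mice. There were 2 libraries. The WT library has the genotype label Spib+Villin-cre and the Spib_KO library the label Spibfl/flVillin-cre, so both carried Villin-cre, which drives Cre recombinase in the intestinal epithelium and leaves Spib intact in cells of other origin. Spib encodes Spi-B, an ETS family transcription factor. The labels do not give the age, sex, strain or number of mice behind a library. With 1 library per genotype no difference below has a replicate check, the genotypes could not be tested and p-values are left out.

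MHC class II molecules display peptides from endocytosed proteins to CD4 T cells. An alpha chain and a beta chain form the peptide groove. The invariant chain, Cd74, fills that groove in the endoplasmic reticulum and guides the dimer to endosomes, where the H2-DM dimer exchanges the remnant of the invariant chain for peptide. Ciita is the coactivator that switches these genes on. It does not bind DNA itself but docks on a complex of RFX, CREB and NF-Y proteins at a short promoter module made of an X box and a Y box. B cells, dendritic cells and macrophages carry class II constitutively, and gut epithelial cells express it to a degree that interferon gamma increases.

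Promoter windows of 300 bases, from 250 before to 50 after a RefSeq start site (GRCm38.p6), were found for 4 of the 7 genes. They are shown because this module is the feature that the promoters of the chain genes share. H2-Ab1, Cd74 and Ciita had no entry. Capitals mark the Y box letters TGATTGG, the X box element TAGNAAC and the core GAGGAA of sites bound by Spi-B and its relative PU.1, each searched on both strands. None of the 3 motifs overlaps another in these windows. All sequences are written 5′ to 3′ on the gene's strand.
H2-Aa, chr17:34287774-34288073, minus strand: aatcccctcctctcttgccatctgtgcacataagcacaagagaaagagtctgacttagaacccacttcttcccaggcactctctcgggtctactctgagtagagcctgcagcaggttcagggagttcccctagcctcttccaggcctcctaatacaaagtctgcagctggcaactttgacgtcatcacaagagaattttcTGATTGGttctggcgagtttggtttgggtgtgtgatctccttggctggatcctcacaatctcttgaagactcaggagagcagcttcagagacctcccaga
H2-Eb1, chr17:34305617-34305916, plus strand: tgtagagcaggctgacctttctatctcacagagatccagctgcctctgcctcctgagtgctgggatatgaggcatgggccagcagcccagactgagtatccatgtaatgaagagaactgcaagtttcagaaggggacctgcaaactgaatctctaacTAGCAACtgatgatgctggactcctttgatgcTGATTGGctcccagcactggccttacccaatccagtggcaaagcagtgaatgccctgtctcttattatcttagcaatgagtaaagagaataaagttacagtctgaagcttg
H2-DMb1, chr17:34152941-34153240, plus strand: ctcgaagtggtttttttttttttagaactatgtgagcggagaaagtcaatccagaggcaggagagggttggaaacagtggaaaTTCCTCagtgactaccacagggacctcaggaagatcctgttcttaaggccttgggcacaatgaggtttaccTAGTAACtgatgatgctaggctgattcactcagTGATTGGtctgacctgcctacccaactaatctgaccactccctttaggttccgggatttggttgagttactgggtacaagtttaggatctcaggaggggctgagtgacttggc
H2-DMa, chr17:34122582-34122881, plus strand: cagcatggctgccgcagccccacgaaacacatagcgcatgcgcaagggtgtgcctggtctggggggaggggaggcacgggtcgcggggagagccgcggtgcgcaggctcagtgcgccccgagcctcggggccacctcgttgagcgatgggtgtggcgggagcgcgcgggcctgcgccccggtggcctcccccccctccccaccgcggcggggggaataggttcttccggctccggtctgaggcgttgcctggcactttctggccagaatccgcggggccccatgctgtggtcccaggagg
The Y box letters lay on the sense strand in H2-Aa, H2-Eb1 and H2-DMb1, with their first base 50, 61 and 63 bases before the start. TGATTGG on either strand occurs in 7.82% of 32851 mouse promoter windows of the same length, and on the sense strand between 95 and 40 bases before the start in 1.65%. That range takes in every sense Y box position given here, so 1.65% may understate how common such a match is. The X box element lay further upstream in H2-Eb1 and H2-DMb1, at 93 and 96 bases before the start. Only exact letters were searched, so the near match tggcaac upstream of the Y box in H2-Aa was not marked. The exact X box element occurs in 11.4% of all windows. GAGGAA was found in H2-DMb1 alone, on the opposite strand at 167 bases before the start, and 28.3% of all windows hold it. Neither the H2-DMa window printed above nor a second H2-DMa window, at chr17:34125268-34125567, held any of the 3 motifs. Both windows lie inside the RefSeq span of H2-DMa, chr17:34119693-34139101, and the printed one also overlaps the gene Brd2. No other part of the H2-DMa span was searched, so whether H2-DMa has the module elsewhere was not tested. Among related class II genes outside the set, H2-Oa, H2-Ob and H2-DMb2 also had a sense Y box, at 45, 59 and 92 bases before the start. A match describes letters in the window and is not evidence of binding.

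The libraries were deep and alike in total, with 17925448 reads assigned to genes in WT and 17228684 in Spib_KO. Spib had 6266 reads in WT and 48 in Spib_KO, so that 0.80% of the WT level was left. The sort genes Epcam and Siglecf had log2 ratios of -0.06 and 0.14. All 18 tuft cell markers were present, and 0 of them were lower or higher by the rule given below. Such a count is too small to set apart from the 2.18% lower and 2.33% higher of all measured genes. Their log2 ratios ran from -0.73 for Gnat3 to 0.46 for Rgs13, with a median of 0.05. Transcripts that serve as enterocyte markers were abundant too, and which cells they came from was not tested. The summed level of 14 enterocyte markers was 18512 in WT and 19841 in Spib_KO as normalised read counts (CPM), beside 21554 and 20713 CPM for the tuft cell markers. Fabp1, a fatty acid binding protein, went from 6968 to 10611 CPM within the enterocyte sum, while 11 of the 14 enterocyte markers had a log2 ratio below 0 and their median was -0.39.

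The class II genes were expressed at a modest level in WT and at a much lower level in Spib_KO. Summed over the 7 genes, the WT library held 3200 reads and the Spib_KO library 425. This is 178 CPM (95% Poisson interval 172 to 184) against 24.8 CPM (22.5 to 27.2). The log2 ratio of the sum, Spib_KO over WT, was -2.84, with an exact binomial interval of -2.99 to -2.70 that covers counting error only. In deposited TPM, which corrects for gene length, the sum was 207 in WT and 20.7 in Spib_KO. In a bulk library, fewer class II-positive cells and less class II RNA per cell cannot be told apart.

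By the rule of size used here, 4 of the 7 genes were lower in Spib_KO and 0 were higher. To be measured, a gene needed 5 CPM and 30 reads in 1 library or both. To be called, its whole interval had to lie beyond a log2 ratio of 1 or -1, a 2-fold difference. Of 10707 measured genes, 2.18% were called lower and 2.33% higher. The 4 genes were H2-Aa, Cd74, H2-Ab1 and H2-Eb1. H2-DMa was measured and not called, and H2-DMb1 and Ciita had too few reads to be measured. Of the 5 measured genes, 3 passed the filter in WT alone, which favours a lower call. Without the filter 4 of 7 were called as well, where the share over all 17134 genes was 4.18%. All 7 had a log2 ratio below 0, as did 50.9% of the 17120 genes with a read in either library. The median log2 ratio was -1.98 over the 7 genes and 0.01 over the measured genes.

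**Figure D1:**
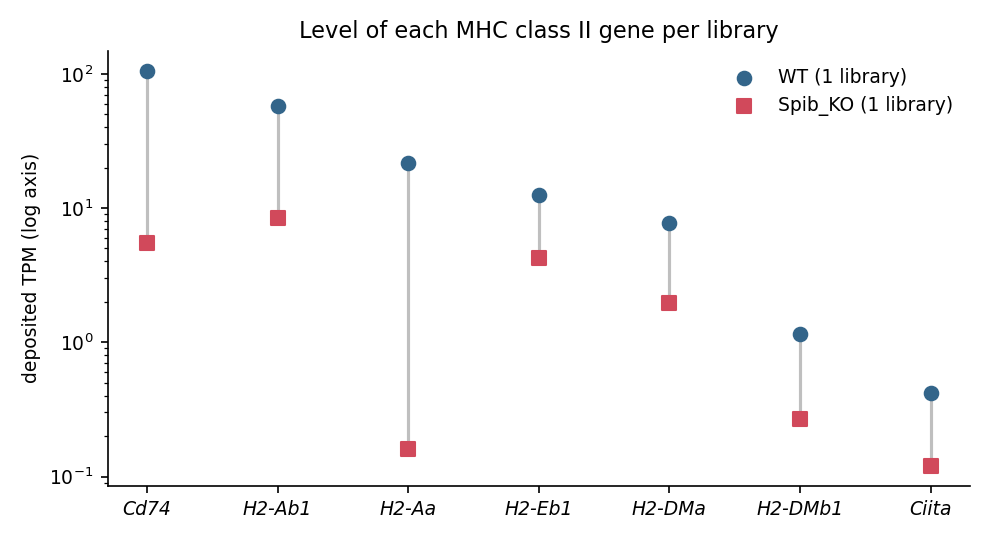
Deposited TPM (log axis) of each of the 7 MHC class II genes in the WT library (circles) and the Spib_KO library (squares), 1 library each, ordered by the WT level. Every gene lies lower in Spib_KO, Cd74 leads in WT at 106 TPM, H2-Ab1 leads in Spib_KO at 8.49 TPM, and H2-Aa shows the widest gap.

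The alpha and beta chains lie side by side on chromosome 17 and differed widely among themselves. H2-Aa (gene 14960, chr17:34282744-34287823), the alpha chain of the I-A molecule, was found in 281 WT reads and 2 Spib_KO reads. These are 15.6 CPM (13.8 to 17.6) and 0.12 CPM (0.01 to 0.42). Its log2 ratio was -6.75 (95% interval -10.1 to -5.20), and between 0.09% and 2.72% of the WT level was left. H2-Aa was thus almost absent from the Spib_KO library.

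H2-Ab1 (gene 14961, chr17:34263227-34269418), the beta chain that pairs with it, kept more of its level. Its 798 WT reads give 44.3 CPM (41.3 to 47.5) and its 115 Spib_KO reads 6.70 CPM (5.53 to 8.04). The log2 ratio was -2.72 (-3.02 to -2.44), which leaves 15.1% of the WT level. Its interval does not overlap that of H2-Aa, its partner in the same dimer.

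H2-Eb1 (gene 14969, chr17:34305867-34316674), the beta chain of the I-E molecule, was called by the narrowest margin. Its 258 WT reads give 14.3 CPM (12.6 to 16.2) and its 85 Spib_KO reads 4.95 CPM (3.96 to 6.12). The log2 ratio was -1.53 (-1.90 to -1.17), which leaves 34.6%. The I-E alpha chain, H2-Ea, is a pseudogene in the RefSeq annotation and was not analysed here.

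The proportions of the chains therefore differed between the libraries, and such a share does not depend on how the libraries are scaled. H2-Aa made up 26.0% of the reads of the I-A pair in WT (exact binomial interval 23.4% to 28.8%) and 1.71% in Spib_KO (0.21% to 6.04%). H2-Eb1 made up 24.4% of the reads of both beta chains in WT (21.9% to 27.1%) and 42.5% in Spib_KO (35.6% to 49.7%). In neither case do the intervals of the libraries overlap. They cover counting error only, since reads from PCR with no molecular identifiers do not each stand for a molecule.

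Cd74 (gene 16149, chr18:60803849-60812652), the invariant chain, lies on another chromosome and was the most abundant of the set in WT. Its 1544 WT reads give 85.8 CPM (81.6 to 90.2) and its 77 Spib_KO reads 4.49 CPM (3.54 to 5.61). The log2 ratio was -4.25 (-4.61 to -3.93), a 19.1-fold difference. Of the measured genes 0.374% had a ratio as low or lower. Relative to H2-Ab1 it also lost ground. It made up 65.9% of the reads of this pair in WT (64.0% to 67.8%) and 40.1% in Spib_KO (33.1% to 47.4%).

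**Figure D2:**
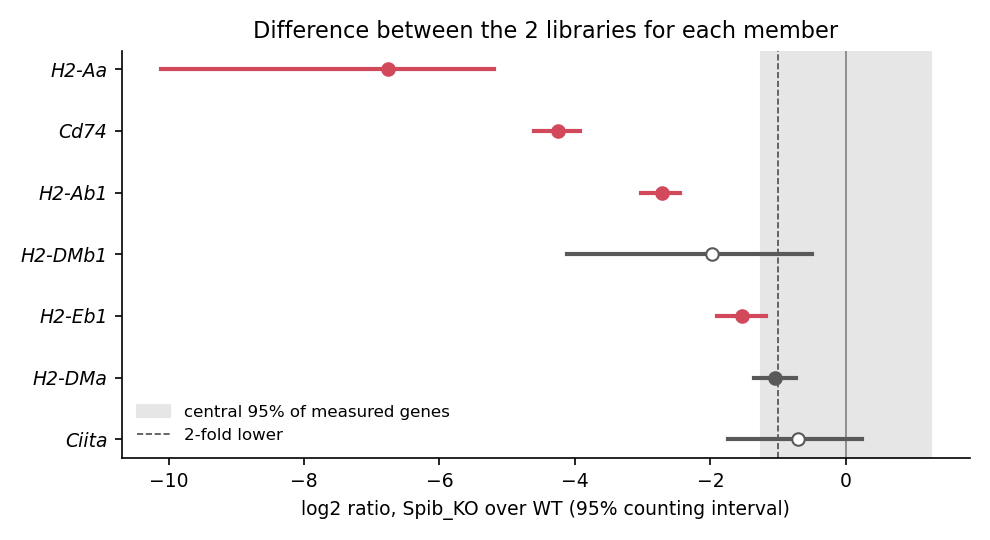
Log2 ratio of Spib_KO over WT for each gene, with its 95% counting interval as a line. Red marks genes called lower, open circles genes with too few reads to be measured, and the grey band the central 95% of measured genes, from -1.25 to 1.26. The intervals of H2-Aa, Cd74, H2-Ab1 and H2-Eb1 do not overlap one another.

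The peptide exchange genes were of low abundance. H2-DMa (gene 14998, chr17:34119693-34139101), the alpha subunit of H2-DM, reached 15.3 CPM (13.5 to 17.2) from 275 reads in WT and 7.40 CPM (6.17 to 8.81) from 127 reads in Spib_KO. The log2 ratio was -1.04 (-1.36 to -0.74), so its interval reaches across the 2-fold line. H2-DMb1 (gene 14999, chr17:34153191-34160229), the beta subunit, was found in 18 WT reads and 4 Spib_KO reads. Its log2 ratio was -1.98 with an interval of -4.12 to -0.50, too wide to place it relative to H2-DMa.

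Ciita (gene 12265, chr16:10480014-10531064), the coactivator of the pathway, was barely detected in either library. Its 26 WT reads give 1.44 CPM (0.94 to 2.12) and its 15 Spib_KO reads 0.87 CPM (0.49 to 1.44). The log2 ratio was -0.71 (-1.75 to 0.25). The interval includes both 0 and a 2-fold lower level, so a difference was not detectable at this depth.

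On the length-corrected scale the order of the levels was not the same in both libraries. In WT it ran from Cd74 at 106 TPM through H2-Ab1 at 57.5, H2-Aa at 21.7, H2-Eb1 at 12.5 and H2-DMa at 7.70 to H2-DMb1 at 1.16 and Ciita at 0.42 TPM. In Spib_KO H2-Ab1 came first at 8.49 TPM, followed by Cd74 at 5.45, H2-Eb1 at 4.24 and H2-DMa at 1.95. H2-DMb1 at 0.27, H2-Aa at 0.16 and Ciita at 0.12 TPM came last, resting on 4, 2 and 15 reads. Cd74 supplied 51.1% of the summed TPM of the 7 genes in WT and 26.4% in Spib_KO. H2-Aa went from the 73.3rd percentile of all genes by TPM to the 21.0th, and Cd74 from the 92.1st to the 50.9th.

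For H2-DMa and Ciita the deposited units do not give the same difference. H2-DMa was 2.06-fold lower in CPM but 3.95-fold lower in TPM, and Ciita 1.65-fold lower in CPM but 3.50-fold lower in TPM. Within a library, the number of reads behind 1 TPM is proportional to the transcript length that the authors' processing used. For H2-DMa it was 35.7 in WT and 65.0 in Spib_KO, and for Ciita 62.8 and 122. After the median of all genes was removed, this is a shift of 0.92 and 1.01 on the log2 scale. Shifts as high as that of H2-DMa occurred in 0.13% of 12313 genes with 10 reads or more in each library, and in 0.39% of the 4155 of these with at most 300 reads in each. For H2-Ab1, H2-Eb1 and Cd74 the shifts were 0.01, 0.01 and 0.00, so their ratios are the same in both units. On the log2(TPM + 1) scale 5 of the 7 genes, H2-DMa among them, were lower by at least 1, where 2.81% of 9106 genes with 5 TPM or more in a library were. Which transcripts of H2-DMa and Ciita the reads came from was not tested.

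**Figure D3:**
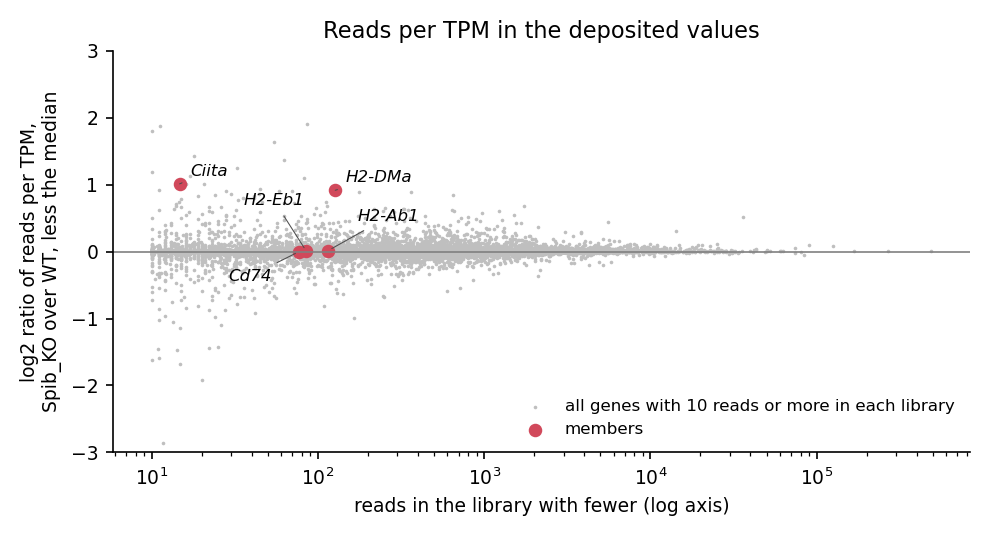
Log2 ratio of reads per TPM, Spib_KO over WT, less the median of all genes, against the reads in the library with fewer (log axis). Grey points are the 12313 genes with 10 reads or more in each library. H2-DMa and Ciita stand near 1, while Cd74, H2-Ab1 and H2-Eb1 sit at 0, and H2-Aa and H2-DMb1 have too few reads to be plotted.

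Not all reads of the set were assigned whole to a gene. The deposited counts of H2-DMa, 274.58 and 126.83, and of Ciita, 26.39 and 14.69, are not whole in either library, and that of H2-DMb1 is not whole in WT, at 17.62. In GENCODE M21 transcripts, 27.2% of the 1355 stretches of 50 bases in H2-DMb1 coding transcripts also occur in its neighbour and near copy H2-DMb2, which had 5 and 4 reads. For Ciita 16 of 8222 stretches occur in the neighbouring gene Dexi. For H2-Aa, H2-Ab1, H2-Eb1, Cd74 and H2-DMa 0 stretches occur in another gene on either strand. The library chemistry does not keep strand, and the RefSeq span of H2-DMa overlaps Brd2 by 3122 bases. Brd2, a chromatin reader gene, was counted at 1344 and 949 reads, and its log2 ratio was -0.43 (-0.55 to -0.31). Within its span Cd74 holds the microRNA gene Mir5107, and Ciita overlaps Dexi and the non-coding gene LOC115488669.

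The lower levels did not extend to all genes of the chromosomal stretch. Between H2-K1 and H2-Ea (chr17:33996012-34344645) the table holds 19 genes, 5 of them members. Of the other 14 genes 11 were measured, and 0 were lower and 0 were higher. Such a count is too small to set apart from the 2.18% and 2.33% of all measured genes. The median of their log2 ratios was -0.01, and 10 of them lay between -0.50 and 0.33. Col11a2, a collagen gene, was the exception, with 50 and 96 reads and an interval of 0.50 to 1.53. Psmb9, Tap1, Psmb8 and Tap2, which encode immunoproteasome subunits and the peptide transporter of the class I pathway, lie between H2-DMb1 and H2-Ab1. Their log2 ratios were -0.24, 0.00, -0.50 and -0.43. H2-Ob, the beta chain of the H2-DM inhibitor H2-O, lies next to H2-Ab1 and was found in 9 WT reads and in 0 Spib_KO reads, where 3 counts would be 0.17 CPM. Its partner H2-Oa had 2 and 5 reads.

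**Figure D4:**
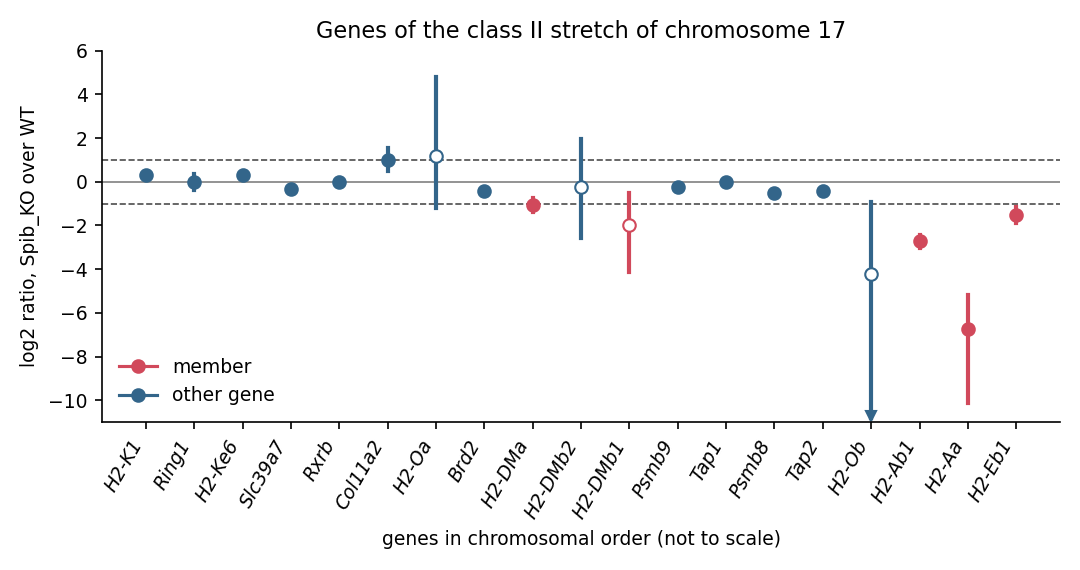
Log2 ratio of Spib_KO over WT with its 95% counting interval for the 19 genes of the class II stretch of chromosome 17, in chromosomal order and not to scale. Red marks members, blue other genes, open circles genes with too few reads, the arrowhead an interval with no lower end, and dashed lines a 2-fold difference. H2-Ab1, H2-Aa and H2-Eb1 at the right end lie below the lower line, while Psmb9, Tap1, Psmb8 and Tap2 lie between the lines.

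The genes that work with class II were measured in 5 lists of partners (49 symbols, 42 in the table). Of 30 measured genes 0 were lower and 0 were higher, a count too small to set apart from the 2.18% and 2.33% of all measured genes. Their median log2 ratio was -0.04 and the range -1.41 to 0.83. By the ratio itself 3 of the 30, Nfya, Rfx5 and Cd274, were at least 2-fold lower, against 3.91% of measured genes. The antigen processing list holds proteases and a reductase that prepare antigen and cut the invariant chain, the protease inhibitor Cst3 and the endolysosomal membrane proteins Lamp1, Lamp2 and Cd63. All 12 were measured and the ratios ran from -0.34 for Lgmn, an endosomal protease, to 0.32 for Cd63. Ctss, the cathepsin that trims the invariant chain, stood at 49.6 and 41.1 TPM, and its log2 ratio in CPM was -0.24. Ctsb had 418 and 403 TPM and a ratio of -0.06. Cst3, a cathepsin inhibitor, had 482 and 437 TPM and a ratio of -0.09.

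In the promoter complex that Ciita docks on, 9 of 10 genes were measured and ratios ran from -1.22 to 0.83. Nfya, a subunit of the Y box factor NF-Y, went from 221 reads to 90. Its log2 ratio was -1.22 (-1.60 to -0.87). Rfx5, a subunit of the X box factor RFX, went from 156 to 72 reads with a ratio of -1.04 (-1.47 to -0.63). Both lie below a 2-fold difference by the ratio itself but not by the interval, so neither was called. The most abundant gene of the list, Crebbp, a histone acetyltransferase, had 109 and 118 CPM, and Nfyc had 59.9 and 49.5 CPM.

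Of 7 other chains and class II-associated genes only Tmem176a and Tmem176b, membrane proteins of the endolysosome, were measured, with log2 ratios of 0.62 and 0.41. Of the genes for ubiquitin ligases and vesicle sorting 5 were measured, with ratios from -0.21 to 0.21. Vamp8, a vesicle fusion protein, and Ap2m1, a clathrin adaptor subunit, were the most abundant, with ratios of 0.09 and 0.20. Most costimulation genes were scarce. Cd80 and Cd86, the ligands of CD28, had 0 and 3 reads in WT and 2 and 0 in Spib_KO. Cd274, which encodes the checkpoint ligand PD-L1, went from 90 to 32 reads. With a log2 ratio of -1.41 (-2.05 to -0.83) it was not called. Tnfrsf14, a receptor of the TNF family, had 60.6 and 43.7 CPM, a ratio of -0.47.

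The interferon gamma pathway, the usual inducer of Ciita, was present in both libraries. Of 11 measured genes from receptor to Ciita regulators 0 were lower and 0 were higher, with a median of -0.04. Irf1, a transcription factor that activates Ciita, stood at 187 and 182 CPM with a ratio of -0.04. Of 13 measured target genes 0 were called either, with a median of 0.00. Among them Psmb10, an immunoproteasome subunit, had 305 and 282 CPM, a ratio of -0.11. With 11 and 13 genes, counts of 0 cannot be set apart from the 2.18% lower and 2.33% higher of all measured genes.

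MHC class I was far more abundant than class II and had no shared direction. B2m, the common light chain, had 2171 TPM in WT and 2623 in Spib_KO, which is 10.5 times the summed TPM of the 7 class II genes in WT and 127 times in Spib_KO. Of 13 measured class I genes 0 were lower and 1 was higher, with a median log2 ratio of 0.15. Counts this small cannot be set apart from the 2.18% lower and 2.33% higher of all measured genes. Of the 13 class I ratios 6 were below 0, among them H2-Q4 at -0.87, H2-Q2 at -0.54 and H2-T3 at -0.52. The higher gene was H2-Q6, with 303 and 855 reads and a ratio of 1.56 (1.37 to 1.76). These genes have near-identical relatives, so reads may be split among them. Its close relative H2-Q7 had a ratio of 1.18.

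Markers of T cells and intraepithelial lymphocytes were present at a low level, and most of those measured were lower in Spib_KO. The summed level of the 15 markers came to 62.7 CPM in WT but 15.7 CPM in Spib_KO. Of 5 measured, 4 were lower: Ccl5, Gzma, Cd7 and Itgae, with ratios of -3.96, -3.75, -2.79 and -2.76. Lck had a ratio of 0.82, and Cd3d went from 20 reads to 0. The part of these cells in the class II difference was not tested.

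Markers of the cells that carry class II constitutively were also scarce. The 9 B cell markers in the table summed to 7.39 CPM in WT and 5.89 CPM in Spib_KO, and 0 were measured. Cd79b had 50 reads in WT and 11 in Spib_KO, Ms4a1 6 and 5, and Cd79a 7 and 0. Others went the opposite way, Pax5 from 8 reads to 37 and Fcer2a from 3 to 14. The 11 dendritic cell markers summed to 13.2 and 3.61 CPM. Only Itgae, which lymphocytes share, was measured, and it was lower. Ccr7 had 46 reads in WT and 0 in Spib_KO, Flt3 had 4 and 0, Clec9a 0 and 6, and Batf3 0 and 2. The 13 macrophage and monocyte markers summed to 26.8 and 19.6 CPM, with 1 of 2 measured lower. That gene was Lyz2, with 110 and 9 reads. Adgre1 had 135 and 230 reads, which is 7.50 CPM of the WT sum and 13.4 CPM of the Spib_KO sum. Csf1r had 5 and 0 reads, C1qa 13 and 0, C1qb 21 and 2, and Tyrobp 18 and 0. The summed class II level in WT was 178 CPM, but sums over different gene lists do not measure amounts of cells. Professional class II-bearing cells have much class II RNA per cell, and their part in the class II difference was not tested.

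Marker lists of other cells differed between the libraries to varying degrees. Eosinophil markers, relevant because eosinophils carry Siglec-F, summed to 4.61 and 5.36 CPM, with 0 measured. Mast cell markers summed to 3.83 and 0.17 CPM with 0 measured, and Mcpt1 had 59 reads in WT and 0 in Spib_KO. The 6 innate lymphoid cell markers in the table summed to 45.6 and 23.6 CPM. Only 1 of them was measured, with a log2 ratio of -0.96, and it was not called. It held 45.0 CPM of the WT sum and 23.2 CPM of the Spib_KO sum. Il7r had 0 reads in WT and 4 in Spib_KO. Among epithelial lists, 8 of 11 measured Paneth cell markers were lower and 1 was higher, 4 of 11 goblet cell markers were lower, and 5 of 8 enteroendocrine markers were lower and 1 was higher. Of 14 enterocyte markers 0 were called, and of 9 measured stem cell markers, the crypt cells that can also express class II, 1 was lower. Without Spib itself 1 of 5 measured M cell markers was lower and 0 were higher, with a median log2 ratio of 0.49. The 7 in the table summed to 84.1 and 113 CPM. Over all measured genes the shares were 2.18% lower and 2.33% higher. The part of any of these cell types in the class II difference was not tested.

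**Figure D5:**
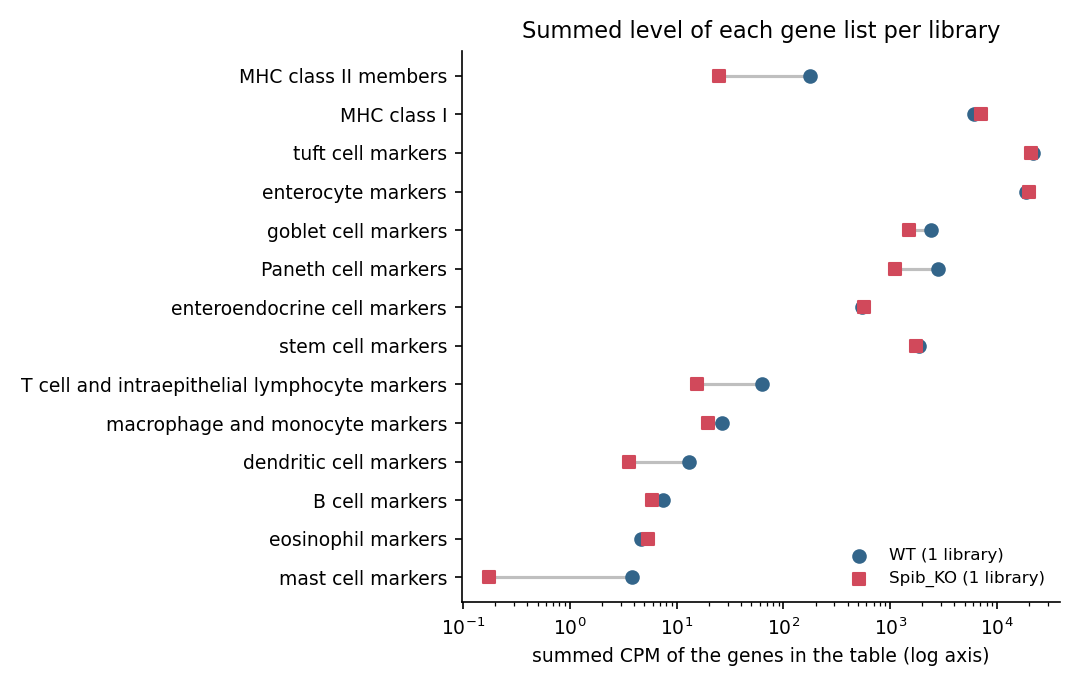
Summed CPM (log axis) of the class II genes, MHC class I and 12 marker lists in the WT library (circles) and the Spib_KO library (squares). Class II goes from 178 to 24.8 CPM and T cell markers from 62.7 to 15.7 CPM, while the tuft cell sum goes from 21554 to 20713 CPM and the enterocyte sum, which Fabp1 leads, from 18512 to 19841 CPM.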

How the data were processed

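HISAT, Bowtie2 2.2.3 and mouse build mm10 are named in the submitters' processing notes, and per the labels' protocols RNA was taken with TRIzol and amplified by a SMART-Seq type method before transposase-based library making. What counted the reads, and on which annotation, is not stated there. For every gene and library the table deposited by the authors holds an FPKM, a TPM and a count. These deposited counts are expected counts (19.0% and 18.6% of genes are not whole) and were rounded.

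Libraries were scaled with TMM factors (edgeR 4.0.16, R 4.3.3) to effective totals of 17996627 and 17160543. The log2 ratio used a prior count of 0.5 per library. Ratio intervals are exact conditional binomial (Clopper-Pearson) and CPM intervals exact Poisson, at 95%, for counting error only. Calls followed the size rule given in the text. Alternatives used DESeq2 1.42.0 size factors, other filters and bounds, thinning, and deposited TPM and FPKM. The procedure was tested on simulated data. Python 3.11.15, numpy 2.4.6, scipy 1.17.1, pandas 2.3.3 and matplotlib 3.10.9 were used.

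The genes, the 22 comparison lists and the size rule were chosen with earlier results of these data known. From each list up to 4 called genes, or else the 2 most abundant, were named, with neighbours of the 7 genes on chromosome 17 and the 5 genes of nearest ratio. Others, such as Nfya, Rfx5, Ctss, Fabp1 and single leukocyte markers, were named after their values were seen. Some genes are not reported here. Coordinates and promoters are from RefSeq on GRCm38.p6, the assembly of mm10.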

Additional observations from a re-analysis of the deposited data

How the results depend on the processing

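No direction was reversed for the 7 genes or their sum under the 11 alternatives run. The log2 ratio of the sum stayed between -3.26 and -2.83. Of the 7 genes, 4 were lower when scaled by total counts, the upper quartile or DESeq2 size factors, with a prior count of 5, no filter on low counts or thinning of the deeper library, 5 with the ratio itself at least 2-fold, with TPM or with FPKM (H2-DMa added), 3 at a 4-fold bound (H2-Eb1 lost) and 2 at a CPM minimum of 20, where H2-Aa and H2-Eb1 were no longer measured. Over all genes, 233 were lower and 250 higher. The counts were 716 and 595 without the filter, 106 and 101 at a CPM minimum of 20, 419 and 425 by the ratio itself, and 88 and 65 at a 4-fold bound, since each rule admits more or fewer genes. Using FPKM, 165 were higher; the cause was not tested. Of the partner genes 3 were lower by the ratio itself: Nfya, Rfx5 and Cd274. H2-Aa rests on 2 reads in Spib_KO, so its ratio ranged from -6.76 to -5.31 over the alternatives on counts and was as high as -4.02 as a log2(value + 1) difference. The depth does not resolve H2-DMb1 or Ciita. No paired analysis was possible because each genotype has 1 library.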

Other observations

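Among 7260 genes with 20 CPM or more in WT, those with a log2 ratio nearest to the -2.84 of the summed class II genes were Defa36, Plekho2, Defa3, Reg4 and Defa42, with ratios of -2.85, -2.86, -2.81, -2.88 and -2.81. Defa36, Defa3 and Defa42 are alpha-defensin genes of Paneth cells, whose reads may be split among near-identical copies, and Reg4 encodes a secreted lectin. Likeness here is closeness of 1 ratio from 2 libraries. Only 27 of the 7260 genes had a ratio as low as the class II sum or lower.

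Interferon gamma targets too scarce to be measured went both ways. Gbp4, a guanylate-binding GTPase, went from 70 WT reads to 6 Spib_KO reads, and its log2 ratio was -3.37 (-4.97 to -2.28). Tgtp1, a GTPase of the same inducible type, had 3 and 36 reads, and the lower end of its interval was 1.99. Of the other unmeasured targets, Cxcl10 had 12 WT reads and 0 Spib_KO reads, with an interval that ended at -1.41. Iigp1 had 8 and 1 reads, Gbp2 33 and 40, and Cxcl9 2 and 2. Nlrc5, the class I counterpart of Ciita, was measured, with 633 and 800 reads and a ratio of 0.41 (0.25 to 0.56). The genes of this paragraph were chosen after their values were seen.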
